A study of Mus musculus with 9 samples.

Results

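Toll-like receptors are the pattern recognition receptors by which macrophages sense microbial molecules. The genes described here are 9 receptors, Tlr1, Tlr2, Tlr3, Tlr5, Tlr6, Tlr7, Tlr8, Tlr9 and Tlr13, and Unc93b1, the chaperone that escorts nucleic acid sensing receptors out of the endoplasmic reticulum. They were taken by name, not by their values, as the genes whose Ensembl identifier has 1 of these symbols in GENCODE M21, and they are 10 of the 28137 genes with a value. All 10 have a row.

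RNA-seq was performed on 9 libraries. All were made from RAW264.7, a macrophage line of the mouse that came from a virus-induced leukemia. The labels name 3 libraries as NC siRNA (the control), 3 as SFRP2 siRNA and 3 as RAB6A siRNA. SFRP2 is a secreted modulator of wnt signaling and RAB6A a small GTPase of Golgi transport. All 3 groups are labeled with the same treatment, which was 60 nM siRNA given with a Lipofectamine reagent for 6 h in DMEM without serum or antibiotics, then 12 h in complete medium, then lipopolysaccharide (LPS) at 100 ng/ml, with RNA taken after 24 h of polarization. The sample titles end in 6H, and the labels do not say what this time refers to. Every library therefore came from cells given LPS and a transfection reagent, and no untreated cells were sequenced here. The study's methods name other transfection conditions and interferon gamma beside LPS, and do not describe the RAB6A siRNA group. The labels do not say whether the 3 libraries of a group were separate cultures, so that the p-values measure only the spread between these libraries.

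A Toll-like receptor is a membrane protein that binds its ligand on leucine-rich repeats and signals through a cytoplasmic TIR domain, which recruits adaptors such as MyD88. Receptors of the cell surface bind microbial lipids and proteins, whereas those of the endosome bind nucleic acids and reach it only with UNC93B1. In macrophages, LPS itself is sensed by TLR4, which was not among the 10 genes and is given further down as a gene of the pathway.

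The level of a gene is given as FPKM as the authors deposited it, in which the reads of a gene are divided by its length and by the depth of the library. FPKM takes the length of a gene into account, so that levels of different genes can be set side by side. The FPKM values were multiples of single reads, and the recovered depth was between 32297214 and 46544869 reads per library. Sfrp2 had 2 to 4 reads in every library of the 9 and gives no check of the SFRP2 siRNA label. Rab6a had an FPKM of 25.7 ± 1.48 in NC siRNA and 20.7 ± 0.445 in RAB6A siRNA (SD, n = 3 each), a log2 fold change of -0.31 (limma adjusted p = 0.0024). Group names therefore follow the labels alone. Of the 8 macrophage markers, 7 were above 1 FPKM in each library, while the 16 markers of other cell types summed to at most 5.16 FPKM in any library.

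The comparisons were made with limma on log2(FPKM + 0.1) over all genes whose FPKM averaged 0.5 or more in the 6 libraries compared, with Benjamini-Hochberg adjusted p-values and standard errors (SE). A gene was called at an adjusted p under 0.05 and called as a DEG where the absolute log2 fold change was also over 1. Of the 10 genes 8 passed this filter in each comparison, and the lowest group mean among these 8 was 0.635 FPKM, so that each passed in every group. Tlr5 and Tlr8 did not pass. The 3 comparisons share their groups pairwise and are not independent of each other.

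In NC siRNA cells, the levels of the 10 genes spanned a wide range. Unc93b1 was the highest with 92.6 ± 4.36 FPKM, followed by Tlr2 with 75.3 ± 2.17 and Tlr7 with 41.2 ± 2.55 (SD, n = 3 each). Tlr9, Tlr1, Tlr13, Tlr3 and Tlr6 followed in this order, from 23.4 ± 1.75 FPKM for Tlr9 down to 8.71 ± 0.528 for Tlr6 (SD, n = 3 each). No neighbors in this order overlapped in their library ranges. Tlr5 was near the limit of detection and Tlr8 was listed at 0. The same order of the receptors was seen in SFRP2 siRNA, where the ranges of Tlr2 and Unc93b1 overlapped.

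**Figure D1:**
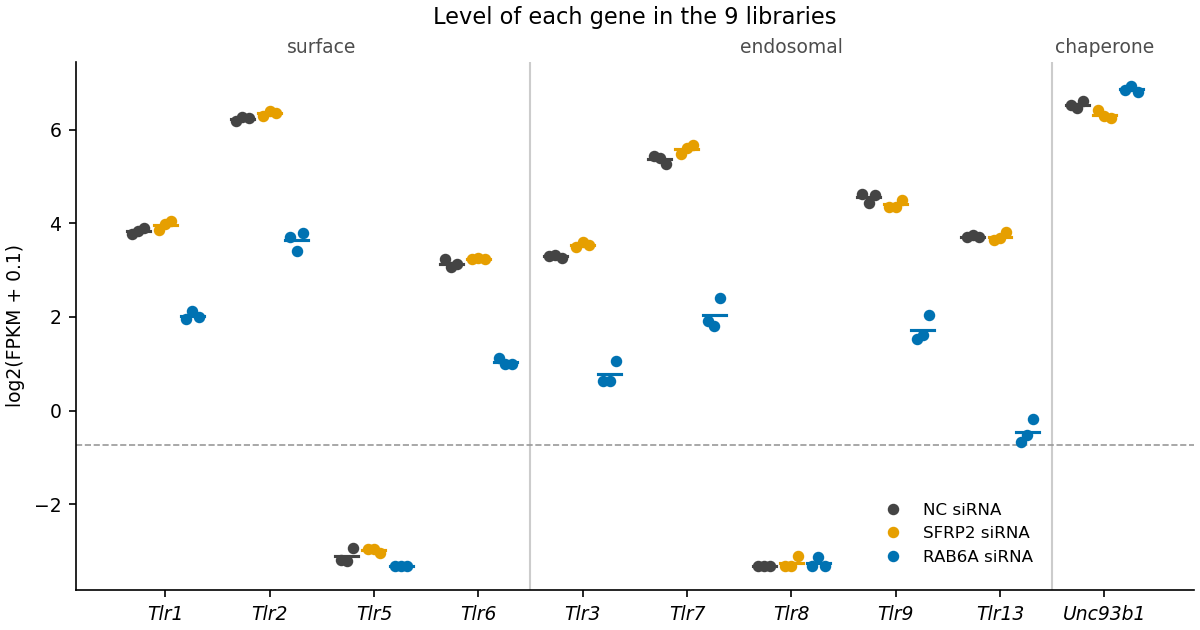
Level of each of the 10 genes in the 9 libraries as log2(FPKM + 0.1). Each point is a library, short horizontal lines are group means, and the dashed line marks a mean FPKM of 0.5. The 7 receptors above the dashed line were lower in all 3 RAB6A siRNA libraries than in any other library, while Unc93b1 was higher there.

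RAB6A siRNA against NC siRNA asks how the genes differ between cells given an siRNA against a Golgi GTPase and the control. All 7 receptors past the filter were lower in RAB6A siRNA, by 3.51-fold for Tlr1, 10.0-fold for Tlr7 and 18.04-fold for Tlr13 on the log2(FPKM + 0.1) scale, and Unc93b1 was higher by 1.25-fold. Among the 12712 genes tested, 36.5% were called lower and 37.6% higher, so that the direction of a single gene is a common result in this comparison. The size of the change was less common, since 12.8% of all genes were called with a log2 fold change under -1, and all 7 receptors were. The median log2 fold change was -2.60 over the 7 receptors and 0.03 over all genes tested. Only 421 of the 12712 genes had a lower log2 fold change than Tlr1, the receptor that fell least. In each of the 7 receptors all RAB6A siRNA libraries lay below all NC siRNA libraries, which held for 38.2% of all genes in this direction. For Unc93b1 they all lay above, as for 39.2% of all genes. In bulk RNA, a lower level in each cell and a smaller share of cells with the mRNA cannot be told apart.

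The surface receptors past the filter were Tlr2, Tlr1 and Tlr6. TLR2 recognizes bacterial lipoproteins as a heterodimer, with TLR1 for triacylated and with TLR6 for diacylated ones. Tlr2 lies on the minus strand of chr3:83836272-83841767 (GRCm38, GENCODE M21), in a gene neighborhood that also holds Sfrp2, on the other strand and 61955 bases away. Tlr1 at chr5:64924679-64933563 and Tlr6 at chr5:64952031-64960097 are tandem neighbors on the minus strand with 18467 bases between them. Their exons are partly alike: 15.3% of the 50-base words of Tlr1 are also found in Tlr6, and 12.6% of those of Tlr6 are found in other genes, mainly Tlr1. How such reads were assigned is not given in the sources used here, so that the levels of both are less certain. None of the other receptors shares a 50-base word with a transcript of another gene read in the same direction. An antisense overlap of Tlr3 is given further down. The sequences just before the start sites are shown for the 3 surface receptors because they fell together. Each is taken from the 250 bases before a RefSeq start on GRCm38.p6, written 5′ to 3′ on the gene's strand, without any base that GENCODE M21 places in an exon of the gene. They are chr3:83841768-83841858 for Tlr2, chr5:64933564-64933808 for Tlr1 and chr5:64959167-64959416 for Tlr6, which in M21 is intronic to a longer transcript. Capitals mark a match to GGGNNTTCC, a form of the NF-kB site, in Tlr2, to GAGGAAG, the ETS core bound by PU.1, in Tlr1, and to GAAANNGAA, the core of the interferon-stimulated response element, in Tlr6.
Tlr2: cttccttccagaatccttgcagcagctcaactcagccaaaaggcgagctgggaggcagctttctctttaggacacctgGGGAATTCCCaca
Tlr1: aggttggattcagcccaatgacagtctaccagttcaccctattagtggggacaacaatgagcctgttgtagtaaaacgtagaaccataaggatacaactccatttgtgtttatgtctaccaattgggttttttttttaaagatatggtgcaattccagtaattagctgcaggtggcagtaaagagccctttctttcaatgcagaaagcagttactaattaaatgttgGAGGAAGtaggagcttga
Tlr6: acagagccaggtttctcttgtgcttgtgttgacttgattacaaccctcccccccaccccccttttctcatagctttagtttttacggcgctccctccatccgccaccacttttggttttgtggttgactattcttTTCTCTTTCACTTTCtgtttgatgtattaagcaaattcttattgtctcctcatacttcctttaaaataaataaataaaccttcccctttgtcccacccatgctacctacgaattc
In Tlr2 and Tlr6 the capitals hold 2 overlapping matches.

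The motifs were searched on both strands in 300-base windows around the RefSeq starts, of which 250 bases lie before the start. Of the 10 genes, 8 had 10 windows, since Tlr1 and Tlr6 have 2 RefSeq starts each. Tlr7 and Unc93b1 had no window and were not searched. Of all 32851 windows, 13.6% held GAGGAAG, 8.56% GAAANNGAA, 7.81% the AP-1 site TGANTCA, 5.82% GGGNNTTCC and 4.36% the other NF-kB form, GGGNNTTTC. Among the 10 windows, GAGGAAG was found in 3, of Tlr1, Tlr9 and Tlr13, GAAANNGAA in 2, of Tlr6 and Tlr8, TGANTCA in 1, of Tlr9, GGGNNTTCC in 1, of Tlr2, and GGGNNTTTC in 1, of Tlr3. The second windows of Tlr1 and Tlr6 held none of these motifs and are not printed. No motif was found in all 6 receptors that fell and had a window. A match describes the letters and is not a site of binding in these cells, and the motifs and stretches were chosen after the expression values were seen.

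Tlr2 had an FPKM of 72.9, 77.1 and 76.0 in the 3 NC siRNA libraries, 78.0, 84.2 and 82.1 in SFRP2 siRNA, and 12.9, 10.6 and 13.7 in RAB6A siRNA. The RAB6A siRNA libraries stood far below both other groups, which lay close together. The log2 fold change of Tlr2 against NC siRNA was -2.60 (SE 0.10, limma adjusted p = 1.4e-06). In RAB6A siRNA Tlr2 was still the highest of the receptors.
Tlr1 had an FPKM of 13.5, 14.2 and 14.8 in NC siRNA, 14.3, 15.7 and 16.4 in SFRP2 siRNA, and 3.77, 4.24 and 3.90 in RAB6A siRNA. It fell least of the 7 receptors, with a log2 fold change of -1.81 (SE 0.07, limma adjusted p = 1.6e-06).
Tlr6, its neighbor, had an FPKM of 9.27, 8.22 and 8.63 in NC siRNA, 9.29, 9.53 and 9.34 in SFRP2 siRNA, and 2.07, 1.88 and 1.89 in RAB6A siRNA. Its log2 fold change was -2.11 (SE 0.08, limma adjusted p = 1.5e-06). The 3 partners did not fall in proportion. Within a library, the ratio of Tlr2 to Tlr1 FPKM was 5.32 ± 0.171 in NC siRNA and 3.14 ± 0.562 in RAB6A siRNA, and that of Tlr2 to Tlr6 was 8.68 ± 0.764 and 6.36 ± 0.803 (SD, n = 3 each). The ratio of Tlr1 to Tlr6 was 1.63 ± 0.152 and 2.05 ± 0.216 (SD, n = 3 each). No ratio of the 3 overlapped between NC siRNA and RAB6A siRNA. Among single genes, 38.2% lay lower and 39.2% higher without overlap in this comparison. No test was made of these ratios, and the share of gene pairs with such a difference was not computed.

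The fourth surface receptor, Tlr5, recognizes flagellin. It is on chr1:182954788-182976044, and its reads numbered 2, 2 and 6 in NC siRNA, 6, 6 and 4 in SFRP2 siRNA and 0 in each RAB6A siRNA library. A count of 0 allows up to 3 reads in a library if reads are independent, and the NC siRNA values lie around this floor, so that no fold is given. The counts above 0 were all even in these paired-end libraries. Whether both mates of a pair were counted is not given in the sources used here, and the floor may be higher. The exact two-sided permutation test of the FPKM gave p = 0.1 for RAB6A siRNA against NC siRNA, the smallest p that 3 libraries against 3 allow, and p = 0.3 after adjustment over the 6 tests of Tlr5 and Tlr8. This test could not reach a p under 0.05 with 3 libraries against 3, whatever the reads. With no filter on low values, limma called Tlr5 in RAB6A siRNA against SFRP2 siRNA and not in RAB6A siRNA against NC siRNA.

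The endosomal receptors past the filter were Tlr3, Tlr7, Tlr9 and Tlr13, with log2 fold changes of -4.17 to -2.52 against NC siRNA. TLR3 binds double-stranded RNA, TLR7 single-stranded RNA, TLR9 unmethylated CpG DNA, and TLR13 a sequence of bacterial ribosomal RNA. Tlr9 is at chr9:106222598-106226883 on the plus strand, Tlr13 at chrX:106143204-106160493 on the plus strand, Tlr7 at chrX:167304929-167330558 on the minus strand and Tlr3 at chr8:45395665-45411080 on the minus strand. An antisense gene, Gm45542, overlaps exons of Tlr3, and whether the counting used strand is not given in the sources used here, so that reads of both cannot be told apart. Of the endosomal receptors that fell and had a window, Tlr9 and Tlr13 had a match outside exons. The stretches before their RefSeq starts are shown (chr9:106222348-106222597 for Tlr9 and chrX:106143025-106143203 for Tlr13). They were taken as for the surface receptors, and capitals mark GAGGAAG in both and TGACTCA, a match to the AP-1 site, in Tlr9.
Tlr9: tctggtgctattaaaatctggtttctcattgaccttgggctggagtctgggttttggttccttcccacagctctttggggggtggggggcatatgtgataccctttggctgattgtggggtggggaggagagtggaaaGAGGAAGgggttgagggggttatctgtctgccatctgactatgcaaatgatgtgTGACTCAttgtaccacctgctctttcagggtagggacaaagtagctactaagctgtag
Tlr13: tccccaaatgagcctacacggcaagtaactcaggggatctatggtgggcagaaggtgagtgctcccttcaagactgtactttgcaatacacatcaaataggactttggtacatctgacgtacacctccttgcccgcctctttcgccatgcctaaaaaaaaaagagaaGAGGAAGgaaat
The marked ETS core begins 83 bases before the RefSeq start in Tlr13 and 112 bases before it in Tlr9.

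Tlr13 had an FPKM of 12.9, 13.3 and 12.9 in NC siRNA, 12.4, 12.7 and 13.9 in SFRP2 siRNA, and 0.524, 0.602 and 0.780 in RAB6A siRNA. These values come from 2310, 2694 and 2363 reads in NC siRNA and from 82, 98 and 110 reads in RAB6A siRNA, with the log2 fold change at -4.17 (SE 0.13, limma adjusted p = 1.0e-06). Tlr13 fell most of the 7 receptors, and of all 12712 genes tested it had the 9th lowest log2 fold change. With a pseudocount of 1 its log2 fold change was -3.10, since so low a level is compressed on that scale.
Tlr7 had an FPKM of 43.2, 42.2 and 38.3 in NC siRNA, 44.8, 48.9 and 51.0 in SFRP2 siRNA, and 3.65, 3.41 and 5.17 in RAB6A siRNA. It was the second highest receptor in NC siRNA and fell by 3.33 on the log2 scale (SE 0.15, limma adjusted p = 2.3e-06). In RAB6A siRNA its range overlapped that of Tlr1, a receptor that was well below it in the other groups.
Tlr9 had an FPKM of 24.4, 21.4 and 24.4 in NC siRNA, 20.3, 20.3 and 22.6 in SFRP2 siRNA, and 2.78, 2.98 and 4.02 in RAB6A siRNA, a log2 fold change of -2.82 against NC siRNA (SE 0.14, limma adjusted p = 2.9e-06). Tlr3 had an FPKM of 9.77, 9.84 and 9.53 in NC siRNA, 11.2, 12.0 and 11.6 in SFRP2 siRNA, and 1.44, 1.46 and 1.97 in RAB6A siRNA. Its log2 fold change was -2.52 (SE 0.12, limma adjusted p = 2.9e-06). For both genes the RAB6A siRNA libraries did not overlap the other groups. Against NC siRNA this held for 38.2% of all genes in this direction, and the share against SFRP2 siRNA was not computed.

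Tlr8, at chrX:167242696-167264329 and 40599 bases from Tlr7 on the same strand, was close to silent. TLR8 senses RNA breakdown products in humans, and its function in mice is less clear. It had 2 reads in SFRP2 siRNA replicate 3 and 2 in RAB6A siRNA replicate 2, and 0 in the other 7 libraries. A count of 0 allows up to 3 independent reads in each, and a difference was not detectable at this depth (exact two-sided permutation test, p = 1 in each comparison). The neighbors Tlr7 and Tlr8 thus differed widely in level in all groups.

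Unc93b1 did not follow the receptors that its protein escorts. The gene is at chr19:3935186-3949340 on the plus strand. Its FPKM was 92.2, 88.5 and 97.2 in NC siRNA, 85.5, 78.0 and 75.4 in SFRP2 siRNA, and 115, 122 and 111 in RAB6A siRNA. The RAB6A siRNA libraries were the highest and the SFRP2 siRNA libraries the lowest, with no overlap between any pair of groups. Against NC siRNA, 39.2% of all genes were higher without overlap in RAB6A siRNA. In SFRP2 siRNA, 24.7% of all genes did not overlap NC siRNA in either direction. Against NC siRNA the log2 fold change of Unc93b1 was 0.33 (SE 0.06, limma adjusted p = 0.0021) in RAB6A siRNA. This value lay at percentile 62.8 of all genes tested, and so was not unusual in size. The summed FPKM of the endosomal receptors per FPKM of Unc93b1 was 0.945 ± 0.0595 in NC siRNA, 1.19 ± 0.139 in SFRP2 siRNA and 0.0832 ± 0.0209 in RAB6A siRNA (SD, n = 3 each). This ratio compares mRNA levels and not protein.

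**Figure D2:**
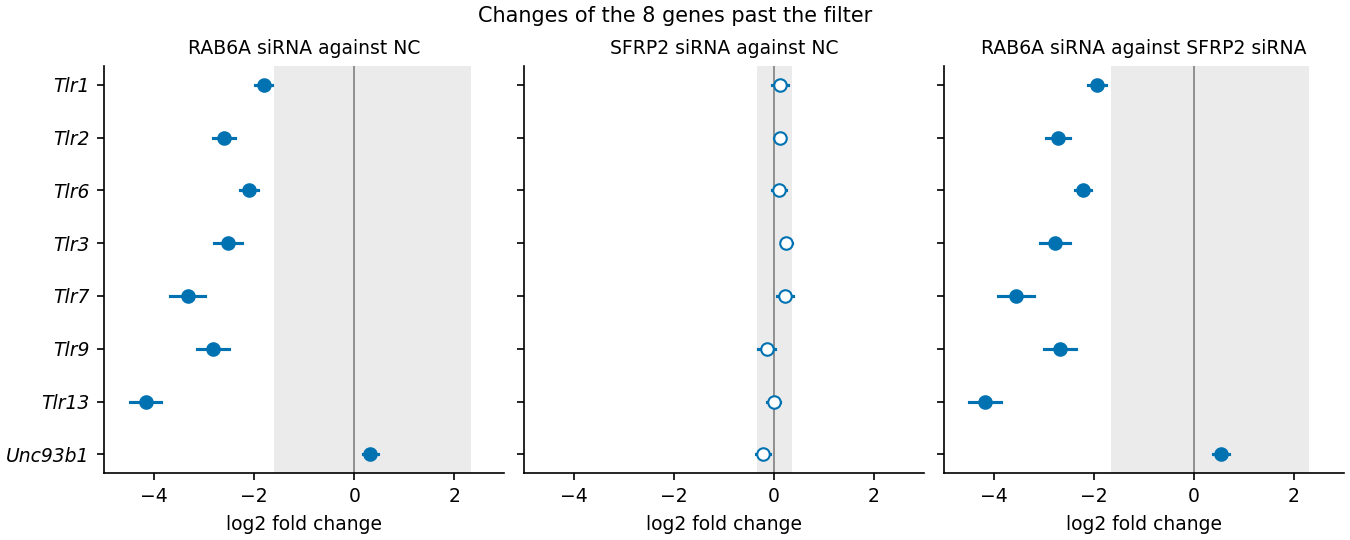
Log2 fold change of the 8 genes past the filter in the 3 comparisons, on the log2(FPKM + 0.1) scale. Bars are 95% confidence intervals, filled points have an adjusted p under 0.05 from limma, and the gray band holds the middle 90% of all genes tested. The 7 receptors lie left of the band in both comparisons with RAB6A siRNA, and no gene is filled for SFRP2 siRNA against NC.

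The receptor mRNA as a whole shrank and its make-up differed in RAB6A siRNA. The FPKM of the 9 receptors summed to 185.6 ± 0.839 in NC siRNA, 200.2 ± 8.69 in SFRP2 siRNA and 27.9 ± 3.18 in RAB6A siRNA (SD, n = 3 each). Surface receptors made up 52.9% ± 1.29 of this sum in NC siRNA, 53.1% ± 0.893 in SFRP2 siRNA and 65.8% ± 3.58 in RAB6A siRNA (SD, n = 3 each). The lowest RAB6A siRNA library, at 62.0%, was above the highest NC siRNA library at 53.9%. The share of Tlr7 was 22.2% ± 1.28 in NC siRNA and 14.5% ± 1.71 in RAB6A siRNA, and that of Tlr13 was 7.02% ± 0.0997 and 2.27% ± 0.298 (SD, n = 3 each). The share of Tlr1 was 7.64% ± 0.383 and 14.4% ± 2.27, while that of Tlr2 was 40.6% ± 1.21 and 44.4% ± 2.85 (SD, n = 3 each). No test was made of these shares, which were chosen after the values were seen.

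**Figure D3:**
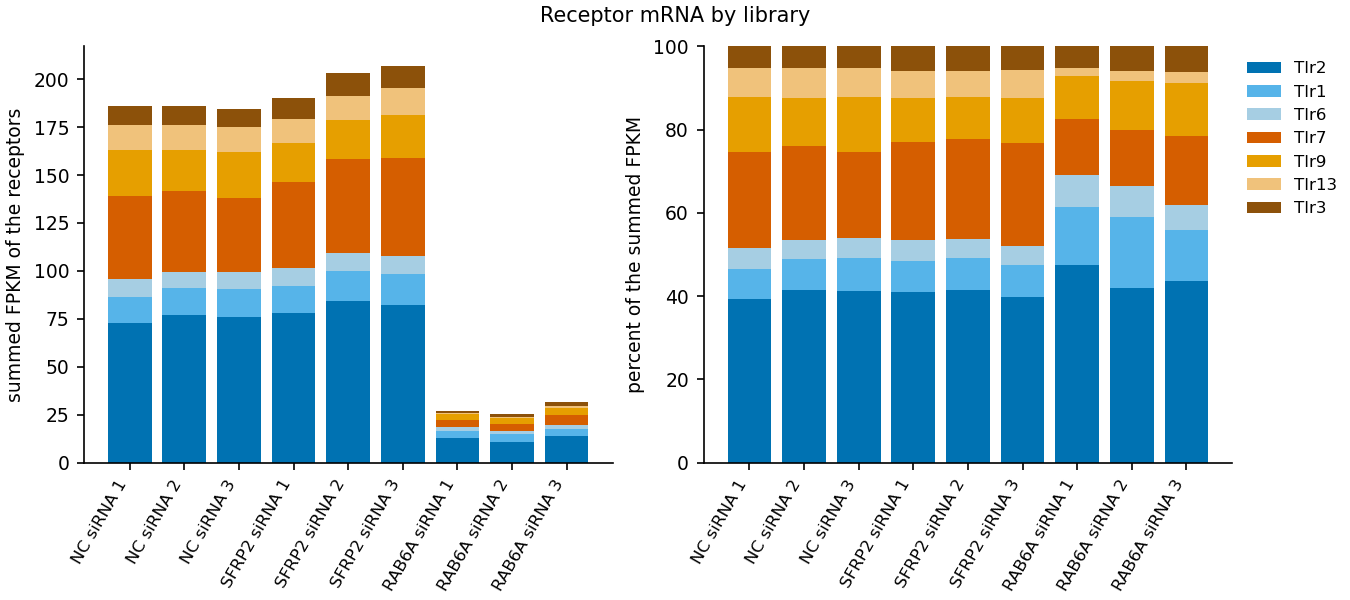
Summed FPKM of the receptors in each of the 9 libraries (left) and the percent of that sum taken by each receptor (right). Blue colors are surface and orange to brown colors endosomal receptors, and Tlr5 and Tlr8 are too low to be seen. The sum was 184.6 to 206.8 FPKM in the NC siRNA and SFRP2 siRNA libraries and 25.1 to 31.4 in RAB6A siRNA, where blue takes a larger part.

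The spread among the RAB6A siRNA libraries was not alike for all receptors. The coefficient of variation was 18.5% to 23.4% for the 4 endosomal receptors, against 5.39% for Tlr6, 6.11% for Tlr1 and 13.0% for Tlr2. In NC siRNA it was 1.64% to 7.47% for the 7 receptors. RAB6A siRNA replicate 3 was the highest library of its group for 5 receptors, Tlr2, Tlr3, Tlr7, Tlr9 and Tlr13, and the lowest for Unc93b1. In the SFRP2 siRNA group, replicate 1 was the lowest library for all 7 receptors and the highest for Unc93b1. The libraries of a group thus differed in several of these genes at once, and no test was made of this. The same spread was not computed over all genes, so that it cannot be called particular to the receptors.

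SFRP2 siRNA against NC siRNA is the comparison that the study reports. The study found DEGs in both directions there with another method, on counts, whereas limma on FPKM was used here. None of the 8 genes was called, and neither was any of the 12017 genes tested (0% called, smallest adjusted p = 0.140 from limma). At an unadjusted p under 0.05, 3 of the 8 genes passed, against 18.5% of all genes, which was 2220. They were Tlr3, with a log2 fold change of 0.25 (95% interval 0.13 to 0.37, unadjusted p = 0.0015, adjusted p = 0.165 from limma), Tlr7, with 0.23 (0.07 to 0.39, unadjusted p = 0.013, adjusted p = 0.193), and Unc93b1, with -0.22 (-0.37 to -0.07, unadjusted p = 0.0096, adjusted p = 0.182). For Tlr2 the log2 fold change was 0.11 (95% interval -0.00 to 0.23) and for Tlr9 it was -0.15 (-0.32 to 0.02). Tlr1, Tlr6 and Tlr13 had values of 0.12 (-0.03 to 0.28), 0.11 (-0.03 to 0.25) and -0.00 (-0.14 to 0.13). The libraries did not overlap for 5 of the 8 genes, Tlr2, Tlr6, Tlr3 and Tlr7 with higher and Unc93b1 with lower SFRP2 siRNA values, against 24.7% of all genes. No bound of these intervals lay further from 0 than 0.39 on the log2 scale. For Tlr5 the exact two-sided permutation test gave p = 0.4, and p = 0.8 after adjustment.

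For the genes with the lowest and highest GC content, these differences ran along with it. Tlr3 and Tlr7, with the highest values, have the lowest GC content of the 8 genes, at 40.0% and 41.0%. Tlr9 and Unc93b1, with the lowest, have the highest, at 56.2% and 57.3%. Among all genes within 2 percentage points of GC content, the median log2 fold change was 0.13 around Tlr3, 0.11 around Tlr7, -0.10 around Tlr9 and -0.11 around Unc93b1. Around Tlr2 it was -0.02 and around Tlr13 0.08, so that these genes did not follow it. After a correction of each library for GC content and gene length, the log2 fold change was 0.12 for Tlr3 and 0.12 for Tlr7. It was -0.03 for Tlr9, -0.09 for Unc93b1, 0.09 for Tlr1 and 0.08 for Tlr6. Tlr2, at 0.15, and Tlr13, at -0.07, moved away from 0 with the correction. The part of GC content in these values was not tested otherwise. In RAB6A siRNA against NC siRNA the same correction left the 7 receptors between -1.61 and -3.96 and Unc93b1 at 0.26.

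**Figure D4:**
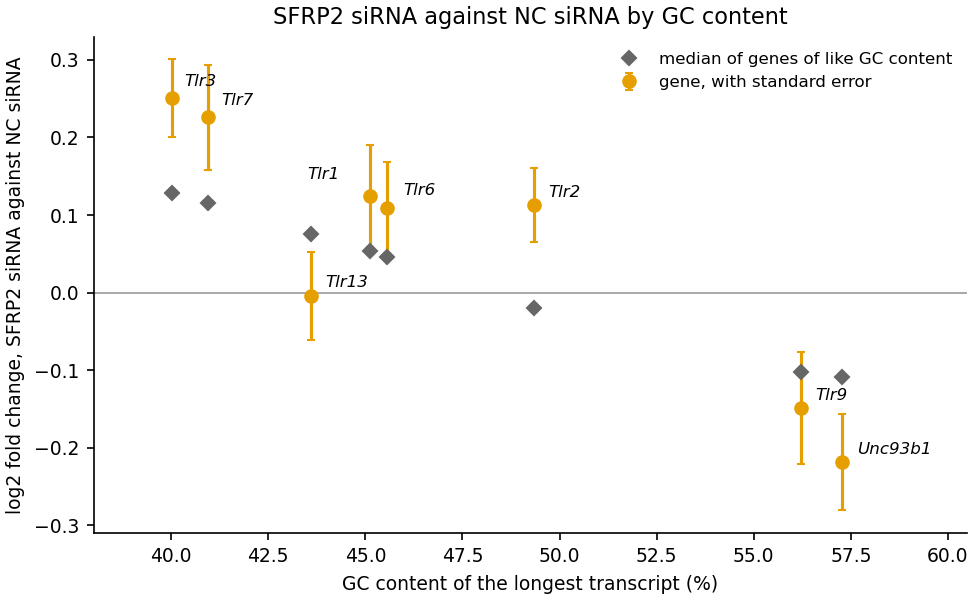
Log2 fold change of the 8 genes in SFRP2 siRNA against NC siRNA by the GC content of the longest transcript. Orange points are the genes with their standard errors, and gray diamonds the median of all genes within 2 percentage points of GC content. Genes and diamonds both run from above 0 at about 40% to below 0 at about 57% GC, and Tlr2 and Tlr13 lie on opposite sides of their diamonds.

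RAB6A siRNA was also compared with SFRP2 siRNA, which asks whether the difference is there against cells that received another targeting siRNA. All 8 genes were called. The 7 receptors had log2 fold changes from -1.94 for Tlr1 to -4.17 for Tlr13, with a median of -2.72, where the median of all 12764 genes tested was 0.03. Unc93b1 had a log2 fold change of 0.54 (SE 0.07, limma adjusted p = 2.9e-04). Of all genes tested, 35.8% were called lower and 37.6% higher. Since the RAB6A siRNA libraries are the same as in the comparison with NC siRNA, this is not an independent observation.

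Other genes of the pathway moved less than the receptors. Over 7 lists of such genes and the other Toll-like receptors, 59 of 67 genes were tested, of which 15 were called higher and 26 lower in RAB6A siRNA against NC siRNA. Of all genes tested 37.6% were called higher and 36.5% lower in this comparison. The 59 genes were thus called lower more often than higher, unlike all genes, and these counts are given as a description. The median of the log2 fold changes of the 59 genes was -0.13, where that of all genes was 0.03. Only 1 of the 59, Cd180, fell by more than Tlr1. Cd180, which encodes the TLR-like protein RP105, had an FPKM of 135.2 ± 3.92 in NC siRNA and 13.0 ± 1.40 in RAB6A siRNA (SD, n = 3 each), with a log2 fold change of -3.38 (limma adjusted p = 5.1e-07). Tlr4, the receptor of LPS, had an FPKM of 2.37, 1.85 and 1.88 in NC siRNA and 1.40, 1.56 and 1.26 in RAB6A siRNA. It fell by 0.50 on the log2 scale (SE 0.14, limma adjusted p = 0.013), less than any of the 7 receptors, and its log2 fold change was 0.20 in SFRP2 siRNA against NC siRNA (limma adjusted p = 0.458). Tlr12 had 2 reads in SFRP2 siRNA replicate 1 and none in the other libraries. No gene with a value had the symbol Tlr11, so that it could not be tested. Of 5 LPS receptor partners tested, Tlr4 included, 3 were lower and 0 higher, where 36.5% of all genes were lower and 37.6% higher. They included Ly96, the MD-2 subunit, with a log2 fold change of -0.88 (limma adjusted p = 6.2e-05).

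All 4 TIR adaptors tested were lower, as were 36.5% of all genes. Myd88, the adaptor of most of these receptors, had an FPKM of 22.0 ± 1.19 in NC siRNA and 8.75 ± 0.315 in RAB6A siRNA (SD, n = 3 each), a log2 fold change of -1.32, and Ticam2, which bridges TLR4 to TRIF, had -1.02 (limma adjusted p = 2.9e-06 and 2.5e-05). Of 17 genes of the IRAK, TRAF and TAK1 relay, 7 were higher and 5 lower, near the 37.6% and 36.5% of all genes. Irak2, a kinase of the Myddosome, rose by 1.24 and Map3k7, which encodes TAK1, by 0.75, while Irak3, an inhibitor of the relay, and Traf3 fell by 1.30 and 0.94 on the log2 scale.
Of 11 genes for the folding and transport of the receptors, 7 were lower and 0 higher, against 36.5% and 37.6% of all genes, and the changes were small. Lrrc59, an endoplasmic reticulum protein, fell by 0.76 and Hsp90b1, which encodes the chaperone gp96, by 0.49 on the log2 scale. Of 8 endolysosomal proteases and nucleases, 2 were higher and 2 lower, which is below the 37.6% and 36.5% of all genes. The nuclease gene Pld3 rose by 0.81 and the protease gene Lgmn by 0.73, while the cathepsin genes Ctsk and Ctsb fell by 1.29 and 0.32. Of 4 surface co-receptors 1 was called lower and 0 higher, below the 36.5% and 37.6% of all genes. The 1 called was Msr1, a scavenger receptor, with a log2 fold change of -0.41. Of 11 transcription factors of the pathway, 6 were higher and 4 lower, where 37.6% and 36.5% of all genes were, with Jun at 1.16 and Irf7 at 0.71, and Fos at -1.13 and Irf5 at -0.62. No gene of any of these lists was called in SFRP2 siRNA against NC siRNA.

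**Figure D5:**
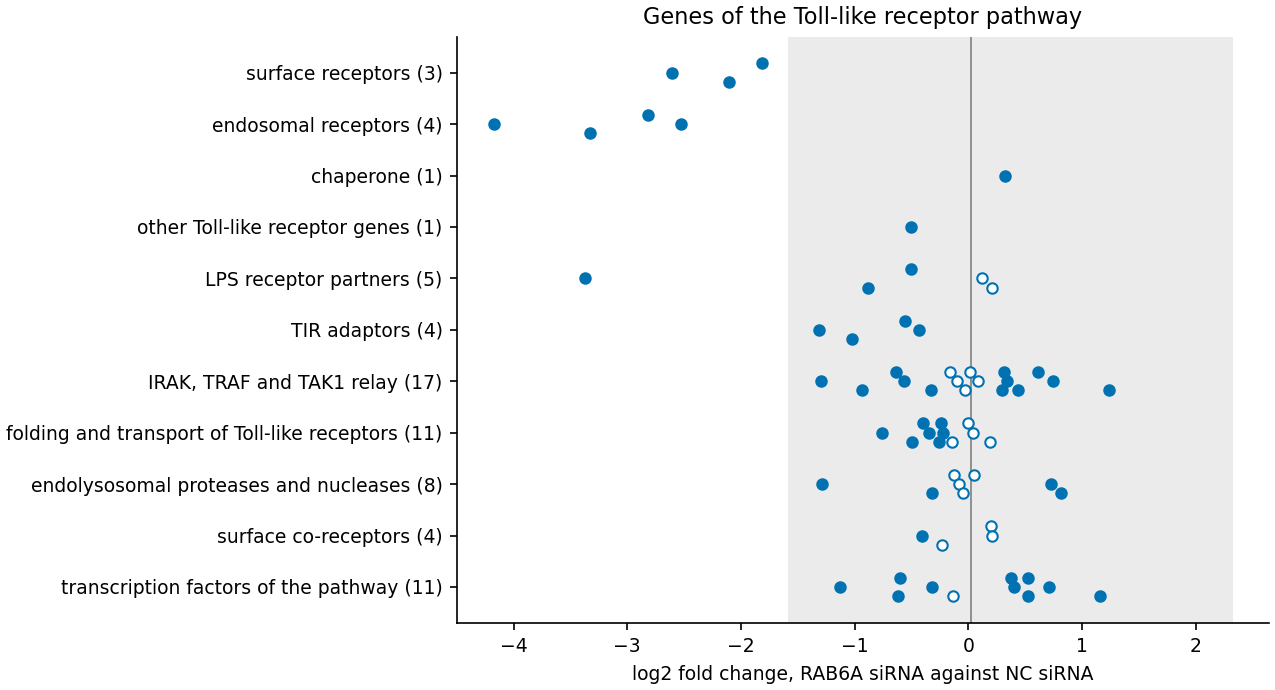
Log2 fold change in RAB6A siRNA against NC siRNA of the receptors, Unc93b1 and the other genes of the pathway, by list, with the number of genes tested in brackets. Filled points have an adjusted p under 0.05 from limma, the gray band holds the middle 90% of all genes tested, and the line is their median. The 7 receptors and Cd180 lie left of the band, and all other points lie within it. Tlr4 and Cd14 each stand in 2 lists.

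Markers of the macrophage also differed between these groups. Of 7 markers tested, 4 were called lower in RAB6A siRNA against NC siRNA and 3 were not called, where 36.5% of all genes were called lower. Csf1r, the receptor of M-CSF, had a log2 fold change of -1.44, Spi1, which encodes PU.1, -1.05, Lyz2 -2.03 and Fcgr1 -0.75, while Adgre1, which encodes F4/80, was at -0.00, Cd68 at -0.14 and Itgam at 0.09. The 8 macrophage markers summed to 2943 to 3237 FPKM in the NC siRNA libraries and to 2014 to 2162 in RAB6A siRNA, and Mrc1 was at most 0.0886 FPKM in each library. The markers of other cell types summed to 3.33 to 4.16 FPKM in NC siRNA and to 2.80 to 5.16 in RAB6A siRNA. The part of these differences in the levels of the Toll-like receptors was not tested.

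Genes with the pattern most like that of 2 of the genes were sought among 12379 genes by the root mean square difference of the log2 values over the 9 libraries, each centered on NC siRNA. For Tlr13, the gene that fell most, the closest were Gpr84 (0.18), Myc (0.22) and Lpar5 (0.28). Gpr84, a receptor of medium-chain fatty acids, had an FPKM of 30.7 ± 0.712 in NC siRNA, 29.0 ± 1.33 in SFRP2 siRNA and 1.41 ± 0.214 in RAB6A siRNA (SD, n = 3 each). For Unc93b1 the closest were Ppp2r1a, Impdh1 and Def6, each at 0.04. Ppp2r1a, a subunit of protein phosphatase 2A, had an FPKM of 60.4 ± 2.66 in NC siRNA, 53.0 ± 1.97 in SFRP2 siRNA and 75.9 ± 2.04 in RAB6A siRNA (SD, n = 3 each). The measure describes these 9 libraries, most of whose difference lies between RAB6A siRNA and the rest.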

How the data were processed

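RNA-seq libraries were made with an ABclonal mRNA-seq kit from total RNA and were paired-end. Per the submitters' processing notes, HISAT2, featureCounts and Subread were used, and the versions, genome build and annotation are not given in the sources used here. The authors deposited FPKM per Ensembl gene for the 9 libraries, and 27533 of 28137 genes were named with GENCODE M21. FPKM times exon length gave whole reads, within 0.03 of a read in all libraries, for 27081 genes (98.4% of those with a length), and 58.2% to 60.2% of the recovered counts were even. Differences were tested with limma 3.58.1 (R 4.3.3) on log2(FPKM + 0.1) with an intensity trend, with the study's thresholds, in place of the count model that the study's methods name, since FPKM are not counts. Fold changes on this scale understate those of low genes. Tlr5 and Tlr8 were tested by exact permutation. Alternatives were the pseudocount, the filter, the scaling, the trend, the replicate block, all libraries in a fit, a GC and length correction, voom on recovered reads and each library left out. Named were the 10 genes, the targeted genes, the other Toll-like receptors, the 2 highest and 2 lowest called genes of each pathway list, and the 3 genes most like the members with the highest and lowest change. The genes and lists were chosen with earlier results of these data known. Intervals and floors cover counting error or the spread between libraries only.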

Additional observations from a re-analysis of the deposited data

How the results depend on the processing

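Under each of the 18 alternatives (12 other settings and 6 with a library left out), 8 of the 8 genes past the filter kept their direction and their call in RAB6A siRNA against NC siRNA and against SFRP2 siRNA, and none of the 8 was called in SFRP2 siRNA against NC siRNA, where the smallest adjusted p from limma was 0.0785, for Tlr3. In RAB6A siRNA against NC siRNA, the log2 fold change of Tlr13 ranged from -4.48 to -3.10, the upper value with a pseudocount of 1, that of Tlr7 from -3.51 to -3.07, of Tlr1 from -1.86 to -1.61 and of Unc93b1 from 0.26 to 0.36. With no filter on low values Tlr5 was called as well in RAB6A siRNA against SFRP2 siRNA, which made 9 genes. With the replicate block the counts were 8, 0 and 8. Over all genes, this setting called 4649 higher and 4454 lower in RAB6A siRNA against NC siRNA. The deviations of libraries with the same number correlated by -0.085 to 0.048. Whether these libraries shared a culture or a batch is not given in the labels, and a low correlation cannot decide it. In SFRP2 siRNA against NC siRNA, Tlr13 changed sign around its value of -0.00392. It was 0.00267 with median-of-ratios scaling, 0.00954 without NC siRNA replicate 2, 0.0284 without SFRP2 siRNA replicate 1 and 0.0112 without SFRP2 siRNA replicate 2, within a range of -0.0514 to 0.0284 over the libraries left out, and the cause was not tested. Over all genes, voom on recovered reads called 42 genes in this comparison, 7 higher and 35 lower, none of them among the 10, and 1 gene was called without NC siRNA replicate 1, where limma on FPKM with all libraries called 0. Tlr5 and Tlr8 had 0 to 6 reads in a library, and their exact tests could not reach a p under 0.05 with 3 libraries against 3.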
